A study of Mus musculus with 15 samples.

Results

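Annexins are a family of calcium-dependent, phospholipid-binding proteins, and several of them bind members of the S100 family of small calcium sensors. The 7 annexin genes Anxa1 to Anxa7 and the S100 genes S100a6, S100a10 and S100a11 were followed across polysomal RNA of mouse kidney. They were found as every probe set that the platform annotation assigns to 1 of these symbols, which gave 22 of 45037 probe sets for 10 of 18193 genes. The brightest probe set, on average over all arrays, stood for its gene. Of the 10 genes, 9 had such a probe set of their own and passed the filter on dim genes, 16864 genes in all. The only probe set of S100a11 is annotated to Gm12854 and S100a11-ps as well, so its signal cannot be assigned to S100a11 alone, and it is described apart from the other 9.

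The series used translating ribosome affinity purification (TRAP), a pulldown of tagged ribosomes with the mRNA on them, to ask how well messages of kidney pericytes are enriched. All mice carried Col1a1-eGFPL10a, in which a collagen1α1 promoter and enhancer drives a fusion of eGFP with ribosomal protein L10a, so the tagged ribosomes are those of cells in which that element was active. Bound RNA, labelled as kidney pericytes, came from Sham kidneys on day 0 and from kidneys on day 2 and day 5 after unilateral ureteral obstruction (UUO), in which urine outflow of 1 kidney is blocked. Unbound RNA, labelled as kidney medulla, came from the same kinds of kidney on day 0 and day 5, and unbound RNA of day 2 was not analysed here. Each of the 5 groups held 3 arrays: bound day 0 (arrays 1 to 3), unbound day 0 (4 to 6), bound day 2 (7 to 9), bound day 5 (10 to 12) and unbound day 5 (13 to 15). The labels give the strain as C57/129sv, the sex as both and the stage as P14 to P300 for every sample, and do not say whether the arrays came from separate animals. The p-values therefore measure the spread between these samples, which may be technical.

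Annexins gather at membranes when calcium rises, where they take part in membrane repair, vesicle traffic and the link between membrane and actin. S100 proteins work mostly as dimers that bind a target peptide, and the best known pair is annexin A2 with S100A10, a tetramer that binds plasminogen and its activator at the cell surface. S100A11 binds annexin A1, and S100A6, also named calcyclin, binds several annexins.

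Promoter sequence is shown for 4 genes. S100a6 and Anxa4 changed in opposite directions in the bound fraction. Anxa2, which had no call, and S100a11, which was not tested as a gene, hold matches to a site for the AP-1 transcription factor. The RefSeq promoter table held 7 of the 10 genes. Anxa3, Anxa6 and S100a10 had no entry. Each sequence below is the 250 bases before a RefSeq start site on build GRCm38.p6, written 5′ to 3′ on the strand of the gene: S100a6 at chr3:90612644-90612893 (plus strand), Anxa4 at chr6:86793585-86793834 (minus strand, 1 of 2 start sites listed), Anxa2 at chr9:69453433-69453682 (plus strand) and S100a11 at chr3:93520246-93520495 (plus strand). Capitals mark matches on either strand to the AP-1 site TGANTCA, the TATA box TATAAA and the GC box GGGCGG.
S100a6: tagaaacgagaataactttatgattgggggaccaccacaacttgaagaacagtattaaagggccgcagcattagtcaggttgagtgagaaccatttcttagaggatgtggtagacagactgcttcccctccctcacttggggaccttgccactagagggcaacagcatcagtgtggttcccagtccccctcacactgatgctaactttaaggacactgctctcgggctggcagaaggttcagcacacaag
Anxa4: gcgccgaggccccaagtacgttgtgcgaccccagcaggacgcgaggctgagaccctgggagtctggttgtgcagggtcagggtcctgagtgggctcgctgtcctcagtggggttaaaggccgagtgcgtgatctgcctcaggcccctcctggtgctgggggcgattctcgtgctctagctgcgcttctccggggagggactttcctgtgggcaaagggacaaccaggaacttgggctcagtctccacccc
Anxa2: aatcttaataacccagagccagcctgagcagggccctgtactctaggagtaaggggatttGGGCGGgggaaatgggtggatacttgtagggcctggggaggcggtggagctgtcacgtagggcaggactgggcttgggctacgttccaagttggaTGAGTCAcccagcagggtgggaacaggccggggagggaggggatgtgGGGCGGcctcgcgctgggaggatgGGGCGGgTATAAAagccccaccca
S100a11: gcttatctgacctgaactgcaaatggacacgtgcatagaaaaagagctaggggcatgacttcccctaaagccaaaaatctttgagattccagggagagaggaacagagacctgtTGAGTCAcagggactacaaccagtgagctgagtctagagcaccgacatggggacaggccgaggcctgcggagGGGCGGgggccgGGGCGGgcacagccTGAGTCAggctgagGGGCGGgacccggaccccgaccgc
The 7 genes had 9 promoter entries. The AP-1 site was present in 2 of the 9 (Anxa2 and S100a11) and in 6.75% of the 32851 entries of the table. The TATA box was present in 2 of the 9 (Anxa1 and Anxa2) and in 12.4% of all entries. The GC box was present in 4 of the 9 (Anxa2, both of Anxa7, and S100a11) and in 32.7% of all entries. The 2 Anxa7 windows overlap, and the only GC box match of 1 of them lies in both. By gene, the GC box was present in 3 of 7. The Anxa2 promoter held all 3 kinds of match, with its AP-1 match starting 95 bases and its TATA match 17 bases before the start, while the windows shown for S100a6 and Anxa4 held none of these letters. These matches describe the sequence only.

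Arrays 6, 9, 12 and 15 were brighter than the rest, with spiked hybridization controls that averaged 12114 to 12905 in intensity there and 4727 to 5864 elsewhere, and the group of bound day 0 holds none of them. Array 11, from bound day 5, had the lowest ratio of 5′ over 3′ Gapdh signal, 0.0269, while the remaining 14 lay between 0.178 and 0.583. Its median intensity of 16.4 was also the lowest, against 32.5 to 198.8 on the remaining arrays. The labelled cell type was checked against marker lists: on day 0, 7 of 8 fibroblast, 5 of 8 pericyte and smooth muscle and 4 of 4 podocyte markers tested were higher in bound RNA. The 7 proximal tubule markers still summed to 21323 to 30429 in bound day 0, against 23615 to 33473 in unbound day 0.

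**Figure D1:**
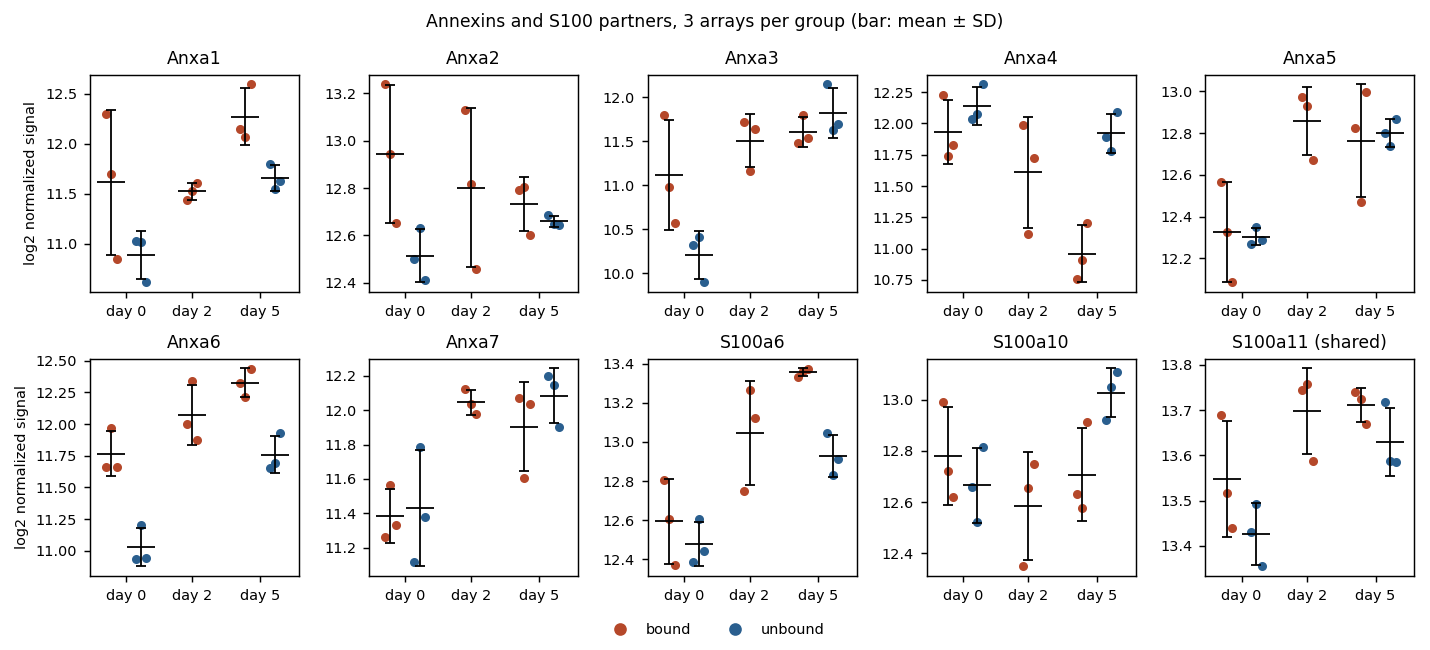
Log2 normalized signal (vertical axis) of the 10 genes in each array by day after obstruction (horizontal axis), with bound arrays in red and unbound arrays in blue and bars for the mean ± SD of 3 arrays. Anxa4 in the bound fraction of day 5 lies at 10.76 to 11.21, below every other array of that gene except bound array 8, and Anxa3 in the unbound fraction of day 0 lies at 9.90 to 10.41, below every other array of that gene.

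Of these genes, Anxa6 was higher in the bound than in the unbound fraction of the sham kidney, and Anxa4 was lower in the bound fraction on day 5. With obstruction, S100a6 rose and Anxa4 fell in the bound fraction, and Anxa3 and Anxa6 rose in the unbound fraction. No difference passed for Anxa1, Anxa2, Anxa5, Anxa7 or S100a10, nor for the probe set shared by S100a11. All values below are log2 normalized signal, differences are log2 differences ± standard error, and a call is an adjusted p under 0.05 from limma over all 16864 genes.

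For bound against unbound, 1 of 9 genes was called on day 0 (Anxa6, higher), where 8.91% of all genes were called, and 1 of 9 on day 5 (Anxa4, lower), where 14.1% were called. In the bound fraction, 0 of 9 were called for day 2 against day 0 (9.25% of all genes), 2 of 9 for day 5 against day 0 (S100a6 higher, Anxa4 lower; 23.7% of all genes) and 0 of 9 for day 5 against day 2 (0.587% of all genes). In the unbound fraction 2 of 9 were called for day 5 against day 0 (Anxa3 and Anxa6, both higher; 10.4% of all genes). For the change in the bound minus unbound difference between day 0 and day 5, 0 of 9 were called and 0.0178% of all genes. In these 7 comparisons limma gave an unadjusted p under 0.05 for 3, 3, 3, 5, 2, 6 and 1 of the 9 genes, and for 25.1%, 30.3%, 24.5%, 36.7%, 16.2%, 24.3% and 14.2% of all genes. The zero counts include 3 genes for bound day 2 (Anxa5, Anxa7 and S100a6), 2 for bound day 5 against day 2 (Anxa1 and Anxa4) and 1 for the change (Anxa3). With at most 2 of 9 genes called, nothing particular to this family is read from these shares.

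**Figure D2:**
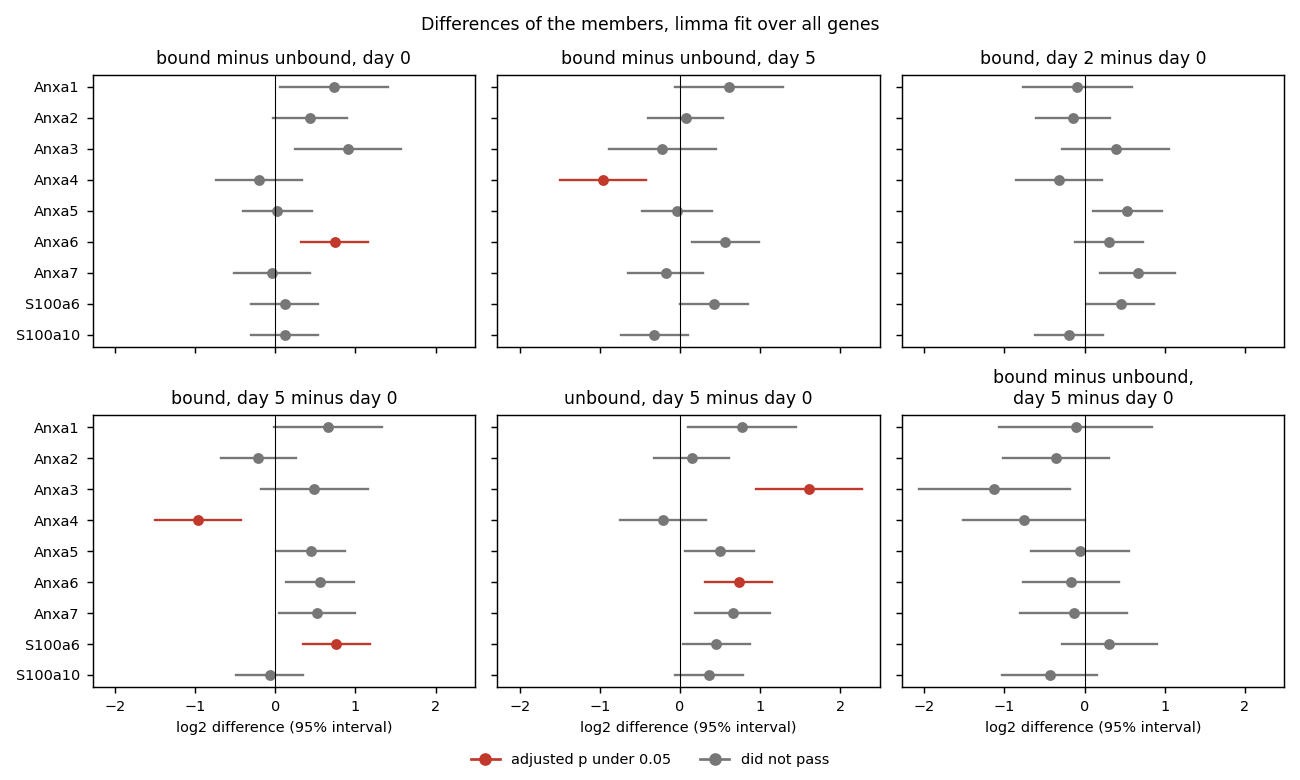
Log2 differences (horizontal axis) with their 95% intervals for the 9 genes with a probe set of their own (vertical axis) in 6 comparisons, red where the adjusted p from limma was under 0.05. The 6 calls run between -0.97 for Anxa4 in the bound fraction and 1.61 for Anxa3 in the unbound fraction.

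Anxa6, an annexin with a doubled core domain that is found at the plasma membrane and endosomes, read 11.66, 11.97 and 11.66 in the bound arrays of day 0, against 10.94, 11.20 and 10.94 in the unbound arrays. All bound arrays lay above all unbound arrays. The difference was 0.74 ± 0.19 (1.67-fold, adjusted p = 0.0359 from limma). On day 5 it read 12.33, 12.21 and 12.44 in the bound arrays and 11.66, 11.69 and 11.93 in the unbound arrays. The groups again did not overlap, and the difference of 0.57 ± 0.19 did not pass (adjusted p = 0.0713 from limma). With median centring it was 1.36, beside 0.41 for the median of all genes, and was called (adjusted p = 0.0181 from limma).
Between day 0 and day 5 Anxa6 rose 1.66-fold in the unbound fraction, by 0.73 ± 0.19 (adjusted p = 0.0321 from limma), again with no overlap. Its bound mean was 11.77 ± 0.18 on day 0, 12.07 ± 0.24 on day 2 and 12.33 ± 0.11 on day 5 (SD, n = 3 each), and the day 5 difference of 0.56 ± 0.19 did not pass (adjusted p = 0.0544 from limma). With median centring that difference was 1.04, beside 0.34 for the median of all genes, and was called (adjusted p = 0.0345 from limma). The change in its bound minus unbound difference was -0.17 ± 0.27 (adjusted p = 0.812 from limma).
The 8 fibroblast markers summed to 23866 to 28038 in bound day 0, against 5557 to 7468 in unbound day 0, and to 24291 to 25045 in unbound day 5. None was at the level of the negative controls. The 8 pericyte and smooth muscle markers summed to 20550 to 27749, 6012 to 7964 and 16179 to 18996 in these groups, with Cnn1 at that level in unbound day 0. The 4 tested podocyte markers summed to 17031 to 26862, 3062 to 3732 and 3937 to 3959, with Nphs1 at that level in both unbound groups. The part of these cells in the Anxa6 results was not tested, and in bulk samples fewer cells of a type and less RNA per cell cannot be told apart.
The call of day 0 was lost without any 1 of arrays 1 to 6, 10, 13, 14 and 15, with differences of 0.64 to 0.83 and adjusted p from 0.0505 to 0.130, and the difference was -0.024 with no scaling between arrays and 0.40 as the mean of all Anxa6 probe sets (adjusted p = 0.414 from limma). The unbound call was lost without any 1 of arrays 4, 5, 6, 13, 14 and 15 (differences 0.65 to 0.82, adjusted p from 0.0560 to 0.117 by limma), and with median centring the difference was 0.31 (adjusted p = 0.630).

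Anxa4, an annexin known as abundant in epithelia, read 10.76, 10.91 and 11.21 in the bound arrays of day 5, against 11.89, 11.78 and 12.09 in the unbound arrays. Every bound array lay below every unbound array, and the difference was -0.96 ± 0.25 (0.513 of the unbound level, adjusted p = 0.0251 from limma). On day 0 the bound arrays read 12.22, 11.74 and 11.83 and the unbound arrays 12.03, 12.07 and 12.31, which overlapped (-0.21 ± 0.25, adjusted p = 0.647 from limma).
In the bound fraction the mean was 11.93 ± 0.26 on day 0, 11.61 ± 0.44 on day 2 and 10.96 ± 0.23 on day 5 (SD, n = 3 each). Day 5 fell to 0.510 of day 0, a difference of -0.97 ± 0.25 (adjusted p = 0.0150 from limma), with no overlap. Day 2 overlapped both day 0 and day 5. The unbound day 5 minus day 0 difference was -0.22 ± 0.25 (adjusted p = 0.656 from limma), and the change in the bound minus unbound difference was -0.75 ± 0.35 (adjusted p = 0.354 from limma).
Tubule markers moved in the same direction. The summed signal of the 7 proximal tubule markers was 6116 to 11086 in the bound arrays of day 5, against 17671 to 21663 in the unbound arrays of day 5 and 21323 to 30429 in the bound arrays of day 0. The 5 loop and distal tubule markers summed to 9303 to 12426 in bound day 5, against 22005 to 24296 in unbound day 5 and 17845 to 27781 in bound day 0, and the 5 tested collecting duct markers to 402 to 629, against 1420 to 2200 and 1365 to 3233. None of these markers was at the level of the negative controls in any group, and in bound day 5 against day 0 6 of 7, 4 of 5 and 4 of 5 fell. For bound against unbound on day 5, fewer were called lower, with 2 of 7 proximal tubule, 4 of 5 loop and distal tubule and 2 of 5 collecting duct markers. The 6 endothelial markers summed to 3035 to 5467 in bound day 5, against 5789 to 7412 in unbound day 5 (4 of 6 lower) and 7749 to 9998 in bound day 0 (3 of 6 lower). The 4 tested podocyte markers summed to 4224 to 9816 in bound day 5, against 17031 to 26862 in bound day 0, with 4 of 4 lower, while 2 of 4 were higher than in unbound day 5, which summed to 3937 to 3959 and had Nphs1 at the level of the negative controls. The part of these cells in the Anxa4 results was not tested.
The bound against unbound call of day 5 was lost without any 1 of arrays 10, 11, 13, 14 and 15 (differences -1.03 to -0.86, adjusted p from 0.0576 to 0.0887 by limma) and was -0.31 with arrays centred on their medians (adjusted p = 0.435). The bound day 5 call was lost without array 10 (-0.87, adjusted p = 0.0595 from limma), with median centring (-0.64, adjusted p = 0.116) and as the mean of the Anxa4 probe sets (-0.50, adjusted p = 0.213).

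Anxa3, an annexin that is known from neutrophil granules and also made by other cells, gave the largest difference among the 63 differences of the 9 genes. It read 12.14, 11.63 and 11.69 in the unbound arrays of day 5, against 10.32, 10.41 and 9.90 in the unbound arrays of day 0. The groups were apart, and the difference was 1.61 ± 0.31 (3.06-fold, adjusted p = 0.0059 from limma).
In the bound fraction Anxa3 averaged 11.12 ± 0.62 on day 0, 11.50 ± 0.30 on day 2 and 11.60 ± 0.17 on day 5 (SD, n = 3 each), and the 3 groups overlapped. The bound minus unbound difference was 0.91 ± 0.31 on day 0 (adjusted p = 0.0863 from limma), with all bound arrays above all unbound arrays, and -0.22 ± 0.31 on day 5 (adjusted p = 0.670 from limma), with overlap. Its change was -1.13 ± 0.43, which did not pass (adjusted p = 0.286 from limma).
Markers of other cell types rose in the same unbound comparison. The 6 macrophage markers summed to 8206 to 12985 in unbound day 5, against 3456 to 4703 in unbound day 0, and 3 of 6 were called higher (Adgre1, C3ar1 and Mrc1). The 5 tested neutrophil markers, which hold S100a8 and S100a9, summed to 2329 to 6201, against 247 to 356, with 3 of 5 higher, while Mpo, Elane and Csf3r were at the level of the negative controls on day 0. The 8 fibroblast markers summed to 24291 to 25045, against 5557 to 7468, with 5 of 8 higher. The 8 pericyte and smooth muscle markers summed to 16179 to 18996, against 6012 to 7964, with 4 of 8 higher and Cnn1 at the level of the negative controls on day 0. Of the podocyte markers 1 of 4 was higher. Of proximal tubule and collecting duct markers, 1 of 7 and 3 of 5 were lower. The part of these cells in the Anxa3 result was not tested. The Anxa3 call was kept without each of the 15 arrays in turn (adjusted p from 0.00205 to 0.0363 by limma). It was lost with arrays centred on their medians (1.16, adjusted p = 0.0879), with no scaling (1.56, adjusted p = 0.819) and without the 4 bright arrays (1.52, adjusted p = 0.102).

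S100a6, the calcyclin gene, lies at chr3:90612894-90614414, and its promoter is printed above. In the bound fraction it read 12.80, 12.61 and 12.37 on day 0, 12.75, 13.27 and 13.12 on day 2 and 13.33, 13.36 and 13.37 on day 5. All day 5 arrays lay above all day 0 and day 2 arrays, and day 2 overlapped day 0. The difference of day 5 from day 0 was 0.76 ± 0.19 (1.69-fold, adjusted p = 0.0149 from limma), and that of day 2 was 0.45 ± 0.19 (adjusted p = 0.174).
In the unbound fraction S100a6 read 13.04, 12.83 and 12.91 on day 5, against 12.39, 12.61 and 12.44 on day 0. These groups did not overlap, and the difference of 0.45 ± 0.19 did not pass (adjusted p = 0.171 from limma). Bound and unbound differed by 0.12 ± 0.19 on day 0 (adjusted p = 0.758) and by 0.43 ± 0.19 on day 5 (adjusted p = 0.160 from limma), with no overlap on day 5. The day 5 difference was 1.43 with median centring, beside 0.41 for the median of all genes, and was called (adjusted p = 0.0384 from limma). Fibroblast markers summed to 39801 to 46492 in bound day 5, against 23866 to 28038 in bound day 0, with 4 of 8 called higher. Pericyte and smooth muscle markers summed to 36196 to 36962.5, against 20550 to 27749, with 4 of 8 called higher. The part of these cells in the S100a6 result was not tested. The bound call was lost without array 3 (0.65, adjusted p = 0.0609 from limma) and with only the compared groups in the fit (adjusted p = 0.0742), while with arrays centred on their medians it was kept at 1.38 (adjusted p = 0.0314).

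S100a10 encodes the partner that joins with annexin A2, and its gene lies at chr3:93555117-93564645. It read 12.99, 12.72 and 12.62 in bound day 0, 12.35, 12.66 and 12.75 in bound day 2 and 12.63, 12.58 and 12.91 in bound day 5. The 3 bound groups overlapped. In the unbound fraction S100a10 read 12.92, 13.05 and 13.11 on day 5, against 12.66, 12.52 and 12.81 on day 0, with no overlap and a difference of 0.36 ± 0.19 that did not pass (adjusted p = 0.284 from limma).
Bound and unbound S100a10 differed by 0.11 ± 0.19 on day 0 and by -0.32 ± 0.19 on day 5 (adjusted p = 0.765 and 0.290 from limma). The interval of the day 5 difference ran from -0.74 to 0.10.
Anxa2, at chr9:69453683-69491792, read 13.24, 12.94 and 12.65 in bound day 0, 13.13, 12.82 and 12.46 in bound day 2 and 12.79, 12.80 and 12.60 in bound day 5. The bound groups overlapped. It read 12.69, 12.65 and 12.65 in unbound day 5, against 12.50, 12.63 and 12.41 in unbound day 0, which did not overlap. The difference was 0.15 ± 0.21 (adjusted p = 0.738 from limma), with an interval from -0.32 to 0.61. The bound minus unbound difference of Anxa2 was 0.43 ± 0.21 on day 0 (adjusted p = 0.236) and 0.07 ± 0.21 on day 5 (adjusted p = 0.855 from limma). On day 0 all 3 bound arrays lay above all unbound arrays.

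The probe set shared by S100a11, S100a11-ps and Gm12854 lay between 13.35 and 13.76 on all 15 arrays. Its means were 13.55 ± 0.13, 13.70 ± 0.09 and 13.71 ± 0.04 in the bound fraction on day 0, day 2 and day 5, and 13.63 ± 0.08 in unbound day 5, against 13.43 ± 0.07 in unbound day 0 (SD, n = 3 each). No difference passed. The smallest adjusted p was 0.625, for bound day 5 minus day 0 (0.16 ± 0.19, limma over 39928 probe sets). In the unbound fraction the day 5 minus day 0 difference was 0.20 ± 0.19 (adjusted p = 0.655), where the groups did not overlap.

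Anxa1 encodes a protein with known anti-inflammatory action through formyl peptide receptors. It read 12.30, 11.70 and 10.85 in bound day 0, a range that took in all 3 arrays of bound day 2, which read 11.44, 11.53 and 11.61. In bound day 5 it read 12.15, 12.07 and 12.59, against 11.80, 11.55 and 11.63 in unbound day 5. Those groups did not overlap, and the difference of 0.61 ± 0.31 did not pass (adjusted p = 0.205 from limma). With median centring it was 1.34, beside 0.41 for the median of all genes, and was called (adjusted p = 0.0458 from limma). Bound day 5 minus bound day 0 was 0.66 ± 0.31 (adjusted p = 0.146), with array 1 of day 0 inside the day 5 range. Unbound day 5 lay above unbound day 0, which read 11.03, 11.02 and 10.62, by 0.77 ± 0.31 (adjusted p = 0.146 from limma). On day 0 the bound minus unbound difference was 0.73 ± 0.31, with overlap (adjusted p = 0.168). Without array 3 it was 1.11 and was called (adjusted p = 0.0275), and without array 1 the bound day 5 difference was 1.00 and was called (adjusted p = 0.0278 from limma).
Anxa5, the protein used as a probe for exposed phosphatidylserine, ranged from 12.09 to 13.00 over all arrays. Its bound mean was 12.32 ± 0.24 on day 0, 12.86 ± 0.16 on day 2 and 12.76 ± 0.27 on day 5, and its unbound mean 12.80 ± 0.07 on day 5, against 12.30 ± 0.04 on day 0 (SD, n = 3 each). Day 2 bound lay above day 0 bound without overlap (0.53 ± 0.20, adjusted p = 0.117 from limma). Bound day 5 minus bound day 0 was 0.44 and was not called. With median centring it was 0.93, beside 0.34 for the median of all genes, and was called (adjusted p = 0.0446 from limma). Bound and unbound differed by 0.02 ± 0.20 on day 0 and by -0.04 ± 0.20 on day 5.
Anxa7, an annexin linked to membrane fusion and exocytosis, had bound means of 11.39 ± 0.16 on day 0, 12.05 ± 0.07 on day 2 and 11.90 ± 0.26 on day 5, and unbound means of 12.08 ± 0.16 on day 5, against 11.43 ± 0.34 on day 0 (SD, n = 3 each). Its day 2 difference in the bound fraction was 0.66 ± 0.22 (adjusted p = 0.0796) and its day 5 difference in the unbound fraction 0.66 ± 0.22 (adjusted p = 0.0783 from limma), both with no overlap.

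The count of genes whose arrays did not overlap depended on how the arrays were scaled. With quantile normalization, 8 of the 9 genes (all but Anxa4) were higher in every unbound array of day 5 than in every unbound array of day 0, against 24.3% of all genes higher and 21.6% lower. Median centring of the arrays left 1 that was higher (Anxa3) and 1 that was lower (Anxa4), against 14.5% and 28.2% of all genes. For bound against unbound on day 0, 3 genes were higher without overlap (Anxa2, Anxa3 and Anxa6; 14.7% of all genes higher, 22.1% lower), and 1 with median centring (Anxa6), against 11.4% and 23.3% of all genes. On day 5, 3 were higher (Anxa1, Anxa6 and S100a6; 21.7% of all genes) and 2 lower (Anxa4 and S100a10; 21.3%), while with median centring 6 were higher and 0 lower, against 35% and 12.8% of all genes.
In the bound fraction, 2 genes were higher on day 2 than on day 0 (Anxa5 and Anxa7; 11.4% of all genes higher, 10% lower), and the same 2 with median centring (9.16% and 8.8% of all genes). On day 5 against day 0, 3 were higher (Anxa6, Anxa7 and S100a6; 23.6%) and 1 lower (Anxa4; 16.7%), and 5 and 1 with median centring, against 30% and 11.7% of all genes. On day 5 against day 2, 2 were higher (Anxa1 and S100a6; 9.49% of all genes higher, 5.18% lower), and 1 with median centring (Anxa1; 9.82% and 3.3% of all genes).
Median centring also moved the median difference of all genes, which was 0.41 for bound against unbound on day 5 in place of 0.03, 0.34 for bound day 5 against day 0 in place of 0.12, and -0.22 for unbound day 5 against day 0 in place of 0.01. Relative to the median of all genes, the S100a6 difference of bound day 5 was 0.64 with quantile normalization and 1.05 with centring, that of Anxa4 -1.09 and -0.98, and that of Anxa3 in the unbound fraction 1.61 and 1.38. Relative to the same median, Anxa4 for bound against unbound on day 5 was -0.99 with quantile normalization and -0.72 with centring. In that comparison Anxa1, Anxa6 and S100a6 were 0.59, 0.54 and 0.40 with quantile normalization and 0.93, 0.95 and 1.02 with centring. For bound day 5 against day 0, Anxa5 and Anxa6 were 0.32 and 0.44 with quantile normalization and 0.60 and 0.70 with centring.

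**Figure D3:**
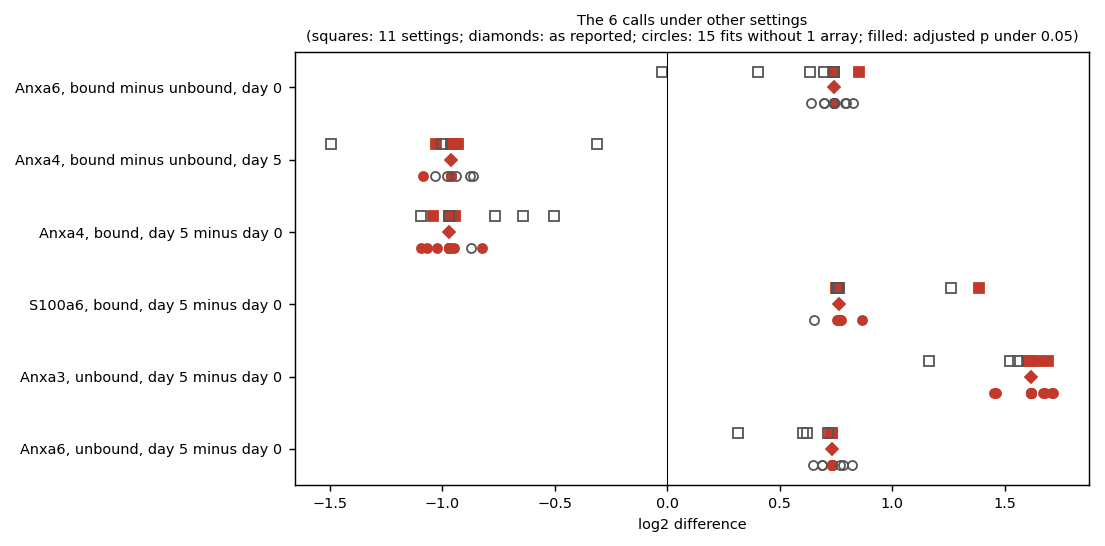
Log2 difference (horizontal axis) of the 6 calls (vertical axis) as reported (diamonds), under 11 other settings (squares) and in 15 fits without 1 array (circles), filled where the adjusted p from limma was under 0.05. Anxa3 in the unbound fraction stayed called in all 15 fits without 1 array, and Anxa6 on day 0 in 5 of 15.

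The 6 calls differed in how often they passed. Over 15 fits that each left out 1 array, Anxa3 in the unbound fraction passed in 15, S100a6 and Anxa4 in the bound fraction in 14 each, Anxa4 between fractions on day 5 in 10, Anxa6 in the unbound fraction in 9 and Anxa6 between fractions on day 0 in 5. Over 11 other settings the same 6 passed in 8, 8, 6, 8, 7 and 5. Without the 4 bright arrays, which leaves 2 arrays in each group except bound day 0, none of the 6 passed, and none passed with no scaling between arrays. Without the bright arrays their differences were 1.52, 0.75, -1.10, -1.002, 0.60 and 0.70 in the same order, with adjusted p from 0.0525 to 0.261 by limma.

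Several genes had more than 1 probe set, and these did not always move together. Of the 22 probe sets 21 passed the filter. Over 39928 probe sets tested, 2 of the 21 were called for bound day 5 against day 0 (13.8% of all probe sets), the brightest of Anxa4 (adjusted p = 0.0323) and that of S100a6 (adjusted p = 0.0389), and 1 for unbound day 5 against day 0 (4.72%), that of Anxa3 (adjusted p = 0.0139 from limma). None was called in the other comparisons, where 3.95%, 6.84%, 4.63%, 0.193% and 0.0025% of all probe sets were called (bound against unbound on day 0 and day 5, bound day 2 against day 0, bound day 5 against day 2, and the change).
For Anxa4, the brightest probe set had an adjusted p of 0.0512 from limma between bound and unbound on day 5 in this fit. The second in brightness differed by -1.29 ± 0.37 there (adjusted p = 0.0543 from limma), with no overlap. The dimmest differed by -0.54 ± 0.43 (adjusted p = 0.480), and read 8.41, 9.08 and 7.27 in the bound arrays of day 5, which overlapped the unbound ones. In bound day 5 against day 0 the second and the dimmest differed by -0.61 ± 0.37 and 0.08 ± 0.43, so that 1 of 3 Anxa4 probe sets carried that call.
For Anxa6, the second probe set in brightness read 11.12, 9.50 and 11.69 in bound day 5, against 10.54, 10.47 and 11.17 in unbound day 5. The value of 9.50 is from array 11. On day 0 its bound arrays lay above its unbound arrays (0.58 ± 0.51, adjusted p = 0.565 from limma). For Anxa7, the second probe set in brightness differed by 0.16 ± 0.32 in bound day 2 against day 0 (adjusted p = 0.838) and by 0.21 ± 0.32 in unbound day 5 against day 0 (adjusted p = 0.803 from limma), both with overlap. The dimmest probe sets of Anxa1 and of Anxa2 were above the negative controls on none of the 15 arrays.

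**Figure D4:**
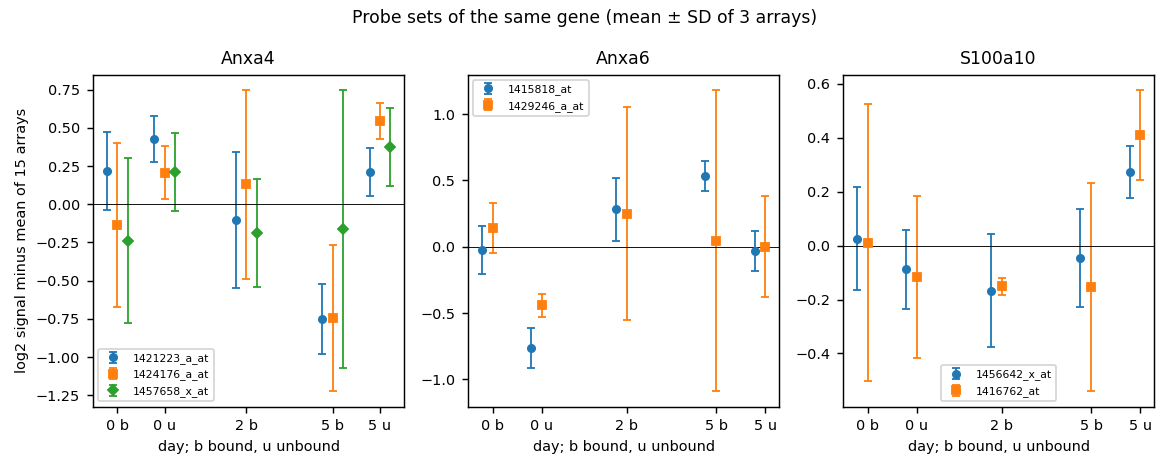
Mean ± SD of 3 arrays for the brighter probe sets of Anxa4, Anxa6 and S100a10, as log2 signal minus the mean of that probe set over 15 arrays (vertical axis), by day and fraction (horizontal axis; b bound, u unbound). Blue marks the brightest probe set of a gene, orange the second and green the dimmest of Anxa4. The means of the brightest and second Anxa4 probe sets are lowest in bound day 5, at 10.96 for the brightest, and that of the dimmest is not.

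Of the other annexins, 3 of 5 were tested (Anxa10 and Anxa11 were not). Anxa9 was lower in the bound fraction on day 0 (-1.02 ± 0.28, adjusted p = 0.0436) and on day 5 (-1.52 ± 0.28, adjusted p = 0.00684 from limma). Anxa13, an annexin known from epithelia, was at the level of the negative controls in bound day 0 and at least 3.80-fold lower there than in unbound day 0 (adjusted p = 0.0460). Anxa8 rose in the bound fraction by day 5, at 7.16 ± 1.10 against 4.83 ± 0.87 on day 0 (2.33 ± 0.77, adjusted p = 0.0452 from limma; SD, n = 3 each).
Of 13 other S100 genes 11 were tested. S100a8 and S100a9, which form calprotectin of neutrophils and monocytes, rose in both fractions. S100a9 averaged 9.93 ± 1.35 in bound day 2 and 9.32 ± 1.26 in bound day 5, against 5.03 ± 1.01 in bound day 0, differences of 4.89 ± 0.76 and 4.28 ± 0.76 (adjusted p = 0.0017 and 0.00214 from limma). In the unbound fraction it averaged 11.55 ± 0.73 on day 5, against 7.49 ± 0.33 on day 0 (4.06 ± 0.76, adjusted p = 0.00535). S100a8 averaged 8.63 ± 1.69 in bound day 2 and 8.17 ± 0.85 in bound day 5, against 4.43 ± 1.06 in bound day 0, and 10.06 ± 0.80 in unbound day 5, against 6.20 ± 0.58 in unbound day 0 (adjusted p = 0.00649, 0.00637 and 0.00932 from limma). Of the other neutrophil markers, Mpo was at the level of the negative controls in bound day 0 and at least 6.51-fold higher in bound day 2 (adjusted p = 0.00592) and at least 12.6-fold higher in bound day 5 (adjusted p = 0.000759 from limma). On day 5 Mpo was called higher in the bound than in the unbound fraction (7.70 ± 0.09 against 4.91 ± 0.78). S100a8 and S100a9 averaged lower in the bound than in the unbound fraction on that day, and neither was called. Elane and Csf3r were at the level of the negative controls in all 3 bound groups. The part of these cells in the S100a8 and S100a9 values was not tested.
S100a14, known from epithelia, was lower in the bound fraction on day 0 (-2.33 ± 0.46) and day 5 (-1.66 ± 0.46). It rose with obstruction in bound day 2 (2.87 ± 0.46), bound day 5 (3.11 ± 0.46) and unbound day 5 (2.45 ± 0.46). The adjusted p of these differences ran from 0.000749 to 0.0335 by limma. In bound day 0 it averaged 4.10 ± 0.74, near the highest negative controls of those arrays (3.92 to 4.16). The size of differences from that group is therefore uncertain. S100g, the calbindin-D9k gene of calcium-transporting epithelia, was lower in the bound fraction on day 0 (-2.43 ± 0.49) and fell in bound day 2 (-2.77 ± 0.49), bound day 5 (-1.88 ± 0.49) and unbound day 5 (-3.48 ± 0.49), with adjusted p from 0.00095 to 0.0162. S100a16 rose in bound day 5 at 12.03 ± 0.20, against 10.68 ± 0.14 in bound day 0 (1.34 ± 0.35, adjusted p = 0.0181). S100a4, often used as a fibroblast marker, did not pass in any comparison, with means of 9.67 to 10.09 over the 5 groups.

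**Figure D5:**
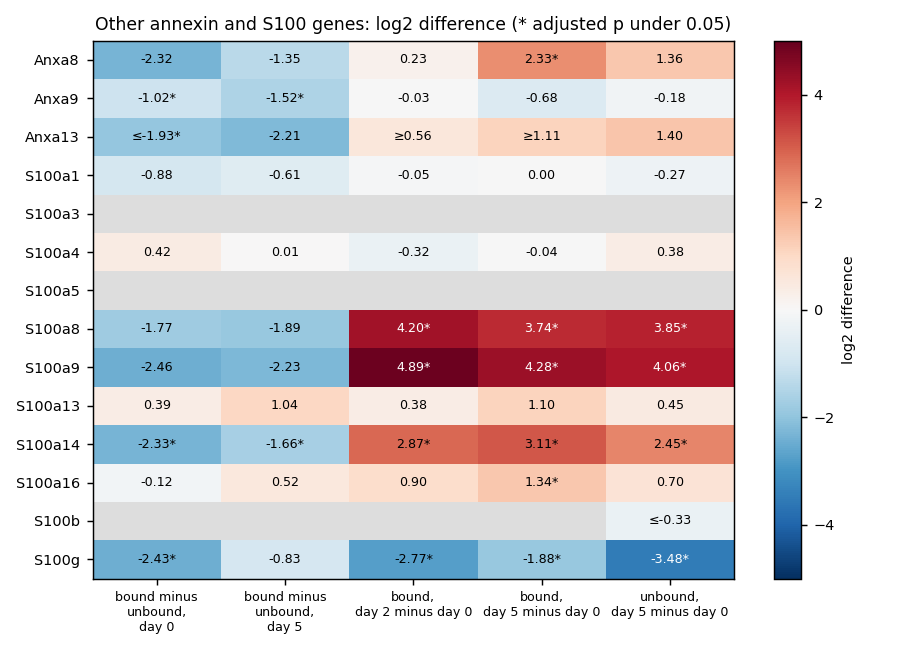
Log2 differences (numbers and colour) of 14 other annexin and S100 genes (rows) in 5 comparisons (columns), with an asterisk where the adjusted p from limma was under 0.05. Signs ≤ and ≥ mark bounds where 1 group was at the level of the negative controls, and grey cells have no usable difference; S100a8 and S100a9 are high in the 3 columns that compare obstruction with day 0.

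Among 18 partners and genes of membrane repair, 4 were higher and 0 lower in the bound fraction on day 0, where 8.91% of all genes were called. On day 5, 2 were higher and 1 lower, where 14.1% of all genes were called. The 4 of day 0 were the actin crosslinkers Flna (2.74 ± 0.29), Actn1 (2.35 ± 0.29) and Actn4 (3.01 ± 0.55) and the caveola gene Cavin1 (1.35 ± 0.29), with adjusted p from 0.000329 to 0.0157 by limma. On day 5, Ahnak2 (2.15 ± 0.41) and Flna (1.00 ± 0.29) were higher and Cav1 lower (-1.79 ± 0.36), with adjusted p from 0.00762 to 0.0410. The 4 tested podocyte markers summed to 17031 to 26862 in bound day 0, against 3062 to 3732 in unbound day 0, with 4 of 4 higher. In the same groups the 8 fibroblast markers summed to 23866 to 28038, against 5557 to 7468, with 7 of 8 higher. The 8 pericyte and smooth muscle markers summed to 20550 to 27749, against 6012 to 7964, with 5 of 8 higher. The part of these cells in these differences was not tested.
In bound day 5 against day 0, Ahnak2 (1.99 ± 0.41) and Sri (0.85 ± 0.22), the sorcin gene, rose, and Actn4 (-2.34 ± 0.55) and Ahnak (-0.76 ± 0.22), whose protein binds the complex of annexin A2 with S100A10, fell. In unbound day 5 against day 0, Flna (2.17 ± 0.29), Actn1 (1.58 ± 0.29) and Cavin1 (1.12 ± 0.29) rose and none fell. No partner was called for bound day 2 against day 0 or for bound day 5 against day 2, and 0 of 18 for the change. Of all genes, 23.7% were called for bound day 5 against day 0 and 10.4% for unbound day 5 against day 0. The shares were 9.25% for bound day 2 against day 0, 0.587% for bound day 5 against day 2 and 0.0178% for the change. Nothing particular to these 18 genes is read from the counts.
The median over the 18 was 0.23 on day 0 and 0.06 on day 5 for bound against unbound, beside -0.13 and 0.03 for all genes.

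Of 8 genes of the plasminogen system, which annexin A2 with S100A10 brings to the cell surface, 5 were tested. Plat, the tissue activator, was higher in the bound fraction on day 0 (2.10 ± 0.34, adjusted p = 0.00347) and on day 5 (1.34 ± 0.34, adjusted p = 0.0233 from limma). Plau, the urokinase gene, averaged 5.67 ± 1.44 in bound day 5, against 9.37 ± 0.79 in unbound day 5 (-3.70 ± 0.71, adjusted p = 0.00807). Plaur, the urokinase receptor, rose in bound day 2 (1.76 ± 0.38, adjusted p = 0.0128) and in bound day 5 (1.69 ± 0.38, adjusted p = 0.00811). Plgrkt, a plasminogen receptor, rose in bound day 5 (0.92 ± 0.29, adjusted p = 0.0382 from limma). None was called in the unbound fraction, and Plg was above the negative controls on 2 of the 15 arrays. Of all genes, 8.91% and 14.1% were called between fractions on day 0 and day 5. Against day 0, 9.25% were called for bound day 2, 23.7% for bound day 5 and 10.4% for unbound day 5. Nothing particular to these 5 genes is read from the number of calls.

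The genes whose profiles were most like those of Anxa2, S100a10 and Anxa1 were found by the root-mean-square difference of log2 signal over the 15 arrays, each gene centred on its own mean. For Anxa2 they were Yap1 (0.14), Rplp2 (0.14), Wdsub1 (0.15), Jund (0.15) and Ywhae (0.15). For S100a10 they were Ubqln2 (0.11), Hnrnpk (0.13), Zfp36l1 (0.13), Myl12b (0.14) and Qk (0.14), and for Anxa1 Nbdy (0.27), Rnf135 (0.27), Mob3a (0.27), Ahsa2 (0.28) and Zmym1 (0.31). The partners Anxa2 and S100a10 differed from each other by 0.33, so that S100a10 was 1059th of 16863 genes in likeness to Anxa2. All arrays share the normalization, and a gene of little variation is near to others of little variation by this measure.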

How the data were processed

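Polysomal RNA of 15 samples in 5 groups of 3 was amplified and hybridised to 1-colour Affymetrix mouse arrays, per the labels' protocols. The values are linear intensities per probe set, as deposited by the authors. How probes were summarised and scaled is not given in the sources used here. Groups were taken from the sample labels. The platform annotation gave 34945 of 45037 probe sets 1 gene symbol, 932 several and 9160 none, beside 64 control probe sets, and 34741 symbols were matched through the Entrez ID. Intensities were taken as log2(value + 1) and quantile normalized. Genes above the 25th percentile of an array on at least 3 arrays were kept. Models were fitted in R 4.3.3 by limma 3.58.1. They estimated a mean for every group and 7 contrasts of these, with Benjamini-Hochberg adjustment over all genes of a contrast, at 0.05. A probe set was taken as above background where it exceeded the highest of 27 negative-control probe sets of its array. All members were named, with genes of the related lists where they passed the test. For Anxa2, S100a10 and Anxa1 the 5 nearest profiles were named too. S100a4 and Plg fall outside this rule and were named after their values were seen. Members and lists were chosen with earlier results of these data known. Other settings changed scaling, filter, pseudocount, probe sets, prior, array weights and the arrays used. Counts of non-overlapping groups with median centring were added after the data were seen. The fit was tested on simulated data. Columns left unused numbered 0. Sequence work and figures used Python 3.11.15, pandas 2.3.3 and matplotlib 3.10.9.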

Additional observations from a re-analysis of the deposited data

How the results depend on the processing

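Of the 6 calls, Anxa6 between fractions on day 0 turned its sign with no scaling, and the other 5 kept theirs under the 11 other settings and the 15 fits without 1 array. Each call passed in 5 to 8 of the 11 settings. The counts of members below leave out those within 1.5 times of the count reported. Among those left out, median centring gave 3 for bound day 5 against day 0 (3498 of all genes). These were Anxa5, Anxa6 and S100a6, not Anxa4. A filter at the 50th percentile gave 3 for bound day 5 (4338 of all genes) and 3 for unbound day 5 (2063 of all genes), each against day 0. With median centring, the members called, with the number of all genes called in parentheses, were 0 for bound against unbound on day 0 (845), 3 for bound against unbound on day 5 (2366; Anxa1, Anxa6 and S100a6, not Anxa4) and 0 for unbound day 5 against day 0 (1364). The sign turned for Anxa3 0.52, Anxa5 0.84, Anxa7 0.55 and S100a10 0.58 for bound against unbound on day 5, Anxa1 0.027 for bound day 2 against day 0, Anxa2 0.33 and S100a10 0.44 for bound day 5 against day 0, Anxa2 0.35, Anxa5 0.26 and Anxa7 0.17 for bound day 5 against day 2, Anxa2 -0.24 and S100a10 -0.018 for unbound day 5 against day 0, Anxa1 0.74, Anxa2 0.58, Anxa5 0.84, Anxa6 0.73, Anxa7 0.68 and S100a10 0.46 for the change between days. With no scaling between arrays, they were 0 for bound against unbound on day 0 (91), 0 for bound against unbound on day 5 (830), 0 for bound day 5 against day 0 (616) and 0 for unbound day 5 against day 0 (318). The sign turned for Anxa1 -0.060, Anxa2 -0.24, Anxa5 -0.65, Anxa6 -0.024, S100a6 -0.56 and S100a10 -0.53 for bound against unbound on day 0, Anxa2 -0.18 for bound against unbound on day 5, Anxa1 0.48, Anxa2 0.43, Anxa4 0.23 and S100a10 0.37 for bound day 2 against day 0, Anxa2 0.21 and S100a10 0.32 for bound day 5 against day 0, Anxa3 -0.13 and S100a10 -0.053 for bound day 5 against day 2, Anxa1 0.22, Anxa2 0.054, Anxa5 0.31, Anxa6 0.20 and Anxa7 0.16 for the change between days. With the mean of all probe sets per gene, they were 0 for bound against unbound on day 0 (1097), 1 for bound day 5 against day 0 (3163) and 1 for unbound day 5 against day 0 (1382). The sign turned for Anxa6 -0.23 for bound against unbound on day 5, Anxa1 0.20, Anxa2 0.39 and Anxa6 -0.20 for bound day 2 against day 0, Anxa2 0.15 and Anxa6 -0.0076 for bound day 5 against day 0, S100a10 -0.27 for bound day 5 against day 2, Anxa4 0.096 for unbound day 5 against day 0. With only the groups compared in the fit, they were 0 for bound against unbound on day 0 (1519), 0 for bound day 5 against day 0 (2342) and 4 for unbound day 5 against day 0 (4254). With a trended and robust prior, they were 2 for bound against unbound on day 0 (1869), 3 for bound against unbound on day 5 (2859), 3 for bound day 2 against day 0 (1963), 5 for bound day 5 against day 0 (4522) and 5 for unbound day 5 against day 0 (2100). With array weights, they were 4 for bound against unbound on day 0 (4306), 3 for bound against unbound on day 5 (6038), 4 for bound day 5 against day 0 (6157), 6 for unbound day 5 against day 0 (5280) and 1 for the change between days (1936). The sign turned for Anxa7 0.044 for bound against unbound on day 0, Anxa5 0.032 for bound against unbound on day 5, Anxa2 0.0012 for bound day 5 against day 2, Anxa5 0.015 for the change between days. With brightness as a covariate, they were 0 for bound against unbound on day 0 (1244). Without the 4 bright arrays, they were 0 for bound against unbound on day 0 (313), 0 for bound against unbound on day 5 (1), 0 for bound day 5 against day 0 (2117) and 0 for unbound day 5 against day 0 (599). The sign turned for Anxa2 0.028 for bound day 2 against day 0. With a filter at the 50th percentile, they were 2 for bound against unbound on day 5 (2735). Leaving out 1 array at a time, the number called ran from 0 to 1 for bound day 2 against day 0, 1 to 3 for bound day 5 against day 0, 0 to 1 for bound day 5 against day 2, 0 to 0 for the change between days, 0 to 2 for bound against unbound on day 0, 0 to 1 for bound against unbound on day 5 and 1 to 2 for unbound day 5 against day 0. With all 15 arrays, the shares of all genes called were 9.25%, 23.7%, 0.587%, 0.0178%, 8.91%, 14.1% and 10.4% in the same order. The shares in the 15 fits are not given here, and nothing particular to the members is read from these counts. Differences that crossed 0 ran from -0.47 to 0.25 for Anxa1 (bound day 2 against day 0), -0.50 to 0.23 for Anxa1 (the change between days), -0.31 to 0.028 for Anxa2 (bound day 2 against day 0), -0.24 to 0.095 for Anxa2 (bound day 5 against day 2), -0.073 to 0.20 for Anxa3 (bound day 5 against day 2), -0.21 to 0.052 for Anxa5 (bound day 5 against day 2), -0.18 to 0.088 for Anxa5 (the change between days), -0.099 to 0.14 for Anxa5 (bound against unbound on day 0), -0.15 to 0.11 for Anxa5 (bound against unbound on day 5), -0.23 to 0.0067 for Anxa7 (bound day 5 against day 2), -0.32 to 0.018 for Anxa7 (the change between days), -0.20 to 0.14 for Anxa7 (bound against unbound on day 0) and -0.17 to 0.035 for S100a10 (bound day 5 against day 0). The causes of these changes were not tested. Of the calls over all genes, 45.2% were higher for bound against unbound on day 5, 67.9% with median centring and 2.29% with no scaling, and 62.1%, 46.8% and 86.8% for unbound day 5 against day 0. For bound day 5 against day 0 the share was 57.9%, and 68.8% with median centring. As reported, the numbers of all genes called were 1502 and 2380 between fractions on day 0 and day 5, 1560 and 3996 for bound day 2 and day 5 against day 0, 99 for bound day 5 against day 2, 1747 for unbound day 5 and 3 for the change. Further counts apart by over 1.5 times were 357 with no scaling, 246 with only the groups compared and 493 without the bright arrays for bound day 2 against day 0. For bound day 5 against day 2 they ran from 0 with only the groups compared to 240 with a pseudocount of 16, and for the change from 0 with no scaling to 1936 with array weights. No paired analysis was possible because the replicate numbers run over all 15 samples and no number is shared between groups. With 3 arrays a group, the number of arrays limits the precision.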

Other observations

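Receptors and lipid mediators tied to annexins and S100 proteins were followed in the same fit, with 5 of 8 genes tested. Of all genes, 8.91% were called between fractions on day 0. Against day 0, 9.25% were called for bound day 2, 23.7% for bound day 5 and 10.4% for unbound day 5. Fpr2, a formyl peptide receptor that binds annexin A1, was at the level of the negative controls in bound day 0. It was at least 7.98-fold higher in bound day 2 (adjusted p = 0.0202) and at least 4.98-fold higher in bound day 5 (adjusted p = 0.0246 from limma). In the unbound fraction Fpr2 averaged 8.63 ± 0.40 on day 5, against 5.22 ± 1.45 on day 0 (log2 signal, SD, n = 3 each; difference 3.41 ± 0.95, adjusted p = 0.0401 from limma). Macrophage markers summed to 8206 to 12985 in unbound day 5, against 3456 to 4703 in unbound day 0. In the bound fraction they summed to 1287 to 4699 on day 0, 1533 to 7641 on day 2 and 2017 to 8554 on day 5. There 0 of 6 were called. The 5 tested neutrophil markers summed to 77 to 115, 817 to 4656 and 660 to 2263 in these bound groups, with 3 of 5 higher on both days. These 3 were Mpo and the S100 genes S100a8 and S100a9. Elane and Csf3r were at the level of the negative controls in each bound group, and Mpo in bound day 0. In unbound day 5 the 5 markers summed to 2329 to 6201, against 247 to 356 in unbound day 0. The part of these cells in the Fpr2 values was not tested. Ager, a receptor for several S100 proteins, was at least 6.56-fold higher in bound than in unbound day 0, where it was at the level of the negative controls (adjusted p = 0.0201). Pla2g4a, the cytosolic phospholipase A2 that annexin A1 is known to inhibit, averaged 10.73 ± 0.45 in bound day 0, against 9.16 ± 0.39 in unbound day 0 (1.57 ± 0.44, adjusted p = 0.0468 from limma).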
